A study of Mus musculus with 7 samples.

Results

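The peroxisome genes described here are 34 genes chosen by name, 13 Pex genes of peroxisome biogenesis and 21 genes of peroxisomal enzymes, the matrix protease Lonp2 among them. Accessibility was measured by ATAC-seq, in which a transposase inserts sequencing adapters into exposed DNA, in the liver of C57BL/6N mice. The 3 young samples came from animals of 3 months and the 4 aged samples from animals of 18 months, with no genetic change or treatment in either group. The male mice were healthy and kept on a standard diet. The aged samples trace back to 3 animals, because 2 lobules of 1 liver were used as separate samples, and which samples these are is not given, so the spread among aged samples is partly within an animal. A region was assigned to a member when it overlapped TSS ± 200 bp of any of its transcripts in GENCODE M21 on GRCm38. This held for 33 of the 34 members with 41 of the 55680 accessible regions, and Dao, a D-amino acid oxidase, had no region at its promoter or in its gene body. Where a member had several promoter regions, the strongest by mean log2 CPM (counts scaled by the TMM-adjusted library size) was used. A further 91 regions lay in the gene bodies of members outside their own promoters.

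Peroxisomes are membrane-bound organelles that shorten very long and branched fatty acids, make ether lipids and bile acid precursors, and break down D-amino acids, glyoxylate and, in most mammals, urate. They hold no DNA, so all their proteins are encoded in the nucleus. Membrane proteins are inserted with the help of Pex3, Pex16 and Pex19, while folded enzymes are carried into the matrix by the receptors Pex5 and Pex7, which dock, release their cargo and are returned to the cytosol. Hepatocytes are rich in peroxisomes, and their number and enzyme content respond to the nuclear receptor PPAR alpha.

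The counts in regions summed to between 4474652 and 25461110 per sample. All 6 hepatocyte markers had a promoter region, with a summed level of 489 to 567 CPM in young and 613 to 734 CPM in aged samples. Of the lists for other liver cells, 1 of 5 Kupffer, 3 of 5 endothelial, 2 of 4 stellate, 3 of 4 cholangiocyte and 0 of 5 lymphocyte markers had one, and their summed levels were at most 80.7 CPM in any sample. The stellate sum was 20.9 to 24.0 CPM in young and 11.9 to 19.0 CPM in aged samples. The endothelial sum overlapped, at 59.4 to 65.35 CPM in young and 48.4 to 80.7 CPM in aged samples. The cholangiocyte (43.8 to 52.0 against 39.4 to 56.9 CPM) and Kupffer sums (2.22 to 2.65 against 0.588 to 2.80 CPM) overlapped too. With offsets fitted on the mean abundance of the regions, the median hepatocyte log2 fold change went from 0.27 to -0.005, and the stellate one from -0.43 to -0.27. In bulk tissue, a change in the share of cells and a change in accessibility per cell cannot be told apart, and the part of cell composition in the results below was not tested.

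Before their values, the promoter sequence of 6 members is shown to give the range of promoter types. Decr2 and Uox are 2 of the 3 members with increased accessibility, Pex7 and Pex10 had the lowest adjusted p among the biogenesis genes, Lonp2 is rich in G and C and Agxt has the lowest CpG ratio among the windows of members. Each stretch lies before the RefSeq start and holds no annotated exon, is written from 5′ to 3′ in the direction of the gene, and carries the matches to the searched motifs in capitals. The Decr2 stretch ends 173 bases and the Uox stretch 72 bases before that start. The positions in GRCm38.p6 are chr17:26090338-26090414 (minus strand), chr3:146596957-146597076 (plus strand), chr10:19907690-19907809 (minus strand), chr4:155066896-155067015 (plus strand), chr8:86623923-86624042 (plus strand) and chr1:93135120-93135239 (plus strand).
Decr2: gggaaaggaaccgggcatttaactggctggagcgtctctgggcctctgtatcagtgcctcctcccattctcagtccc
Uox: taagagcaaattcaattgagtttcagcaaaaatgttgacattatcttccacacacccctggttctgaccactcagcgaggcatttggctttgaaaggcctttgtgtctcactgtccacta
Pex7: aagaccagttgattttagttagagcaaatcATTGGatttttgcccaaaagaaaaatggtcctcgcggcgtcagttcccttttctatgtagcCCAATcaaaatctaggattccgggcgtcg
Pex10: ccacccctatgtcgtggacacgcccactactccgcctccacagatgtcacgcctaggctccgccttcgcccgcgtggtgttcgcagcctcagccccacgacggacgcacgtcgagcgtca
Lonp2: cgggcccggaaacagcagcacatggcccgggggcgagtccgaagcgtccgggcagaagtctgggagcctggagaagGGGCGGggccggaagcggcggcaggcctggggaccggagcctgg
Agxt: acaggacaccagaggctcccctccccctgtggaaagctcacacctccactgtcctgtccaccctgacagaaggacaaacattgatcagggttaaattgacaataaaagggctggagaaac

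A RefSeq start lay in a promoter region of 29 members, 11 biogenesis and 18 enzyme genes, and the window from 250 bases before to 50 bases after it was searched on both strands. The letters GGGCGG, the core of an Sp1 site, occurred in 20 of the 29 windows (69.0%) against 35.7% of 32851 RefSeq windows. The windows of Decr2, Pex7 and Pex10 held them outside the stretch shown. CCAAT occurred in 10 of 29 (34.5%) against 37.4%, in 9 of the 18 enzyme windows and in 1 of the 11 biogenesis windows, that of Pex7, which held it once on each strand in the stretch shown. The ratio of observed to expected CpG had a median of 0.73 in the members and 0.38 in all windows. It was lowest for Agxt at 0.136. The nuclear receptor half-site AGGTCA was found for Pex11g, Phyh and Scp2 (10.3% against 16.3%), and its direct repeat with 1 base between, the form that PPAR alpha binds with RXR, in 0 of 29 against 0.0396% of all windows. No member held CAAAGTCCA (0.475% of all windows) or GCATGCGC (2.71%). CACGTG was found for Gnpat (7.15% of all windows), CCGGAAGT for Pex6 and Pex11a (3.89%), TGACGTCA for Pex11g and Pex13 (1.79%) and AAGATGGC for Ech1 and Pex14 (2.75%). These matches are a description of the windows and do not show binding. A member window was kept only where its start lay in an accessible region, 1 per gene. The 32851 windows belong to 27025 genes and were not selected in this way. The higher GGGCGG share and CpG ratio are therefore not shown to be particular to peroxisome genes.

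The first comparison asked whether the promoters of peroxisome genes were more or less accessible in aged than in young liver. At an adjusted p under 0.05, 3 of the 33 promoters (9.09%) had increased accessibility in aged liver, those of the enzymes Hacl1, Uox and Decr2, beside 4.48% of all 15422 promoter regions. None had decreased accessibility, beside 2.06% of all promoter regions. Every aged sample lay above every young one at 11 of 33 promoters, beside 20.4% of all promoter regions, and at 0 promoters did every aged sample lie below, beside 8.88%. Of 33 members 28 had a positive log2 fold change, and the values had a median of 0.25 and a range from -0.27 to 0.62, whereas the median of all promoter regions was 0.09, with 61.1% above 0. The 3 calls depended on the samples and on the scaling. No member was called without young replicate 1, young replicate 2, aged replicate 1 or aged replicate 3, and Hacl1 alone was called without aged replicate 2, while the median stayed between 0.22 and 0.27. Calls fell over all promoter regions too, to 0.0973%, 0.37%, 0.201% and 0.357% more accessible in the first 4 of these fits, whereas without aged replicate 2 the share was 5.50%. Without young replicate 3, 2 members were called, beside 3.11% of all promoter regions. Of these, 1 was the biogenesis gene Pex7, which was not called with all samples. With offsets fitted on the mean abundance of the regions no member was called, beside 0.195% of all promoter regions, and the median was 0.02.

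**Figure D1:**
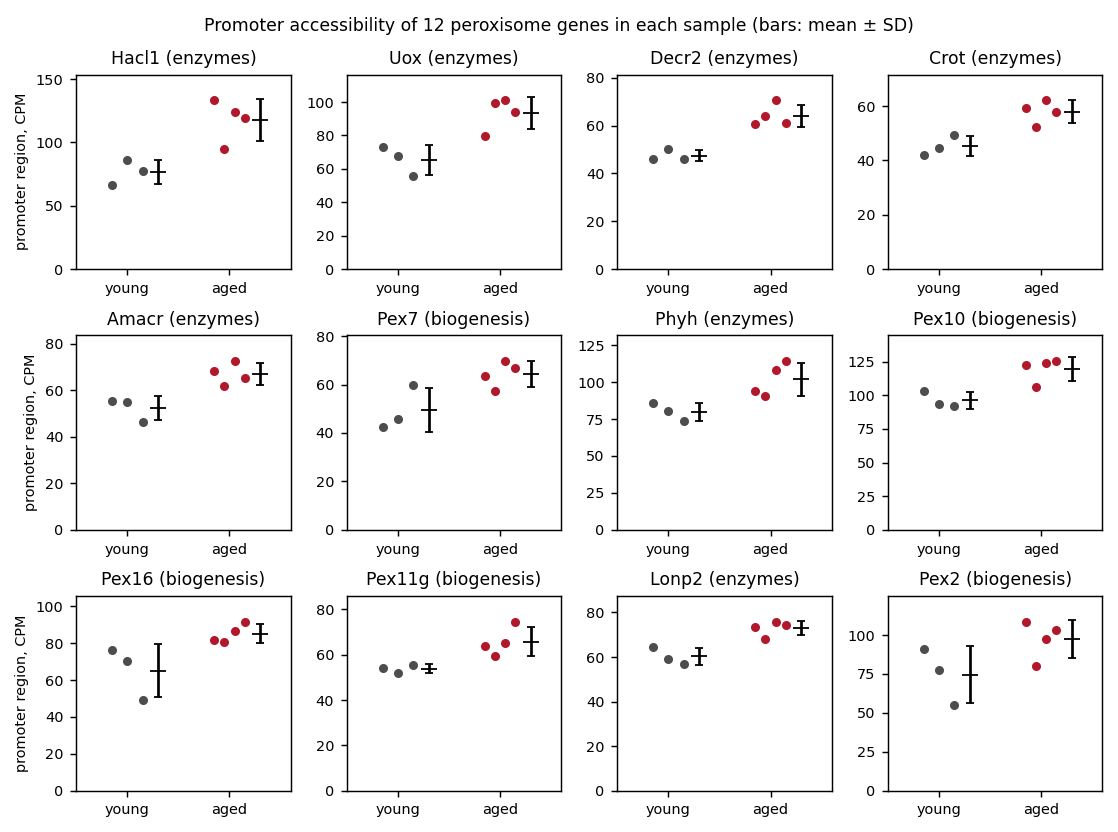
CPM of the promoter region (vertical axis, from 0) in each young (grey) and aged (red) sample for the 12 members with the lowest adjusted p, with the mean ± SD beside the points. In all panels but those of Pex7 and Pex2, every aged sample sits above every young one.

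Among the import receptors, Pex7, which carries proteins with an N-terminal targeting signal, had the lowest adjusted p of the biogenesis genes. Its promoter region (chr10:19906742-19909192) measured 42.6, 45.7 and 59.7 CPM in young and 63.4, 57.5, 69.8 and 66.9 CPM in aged samples. Young replicate 3 was high and lay above aged replicate 2, so that the groups overlapped. The log2 fold change was 0.39 ± 0.13 (SE, n = 3 and 4) with an adjusted p of 0.085, and it was called without young replicate 3 (0.55, adjusted p = 0.023) but in none of the other 6 fits that left out a sample (adjusted p of 0.071 to 0.290). Pex5, the receptor for the common C-terminal signal, stood at 0.23 ± 0.11 on the log2 scale (adjusted p = 0.203) without overlap of the groups. The docking proteins Pex13 and Pex14 had log2 fold changes of 0.24 and 0.03 and were not called.

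The RING ligases Pex2 and Pex10, which attach ubiquitin to the receptors, had the most accessible promoters of all members per length, at 86.8 and 67.8 CPM per kb. The Pex10 region (chr4:155066091-155067706) measured 103, 93.4 and 91.9 CPM in young and 123, 106, 124 and 126 CPM in aged samples. The groups did not overlap, aged replicate 2 being the lowest of the aged samples, and the log2 fold change was 0.32 ± 0.11 (adjusted p = 0.095). The Pex2 region (chr3:5575762-5576771) measured 91.2, 77.8 and 54.8 CPM in young and 109, 80.4, 97.4 and 103 CPM in aged samples. Aged replicate 2 fell among the young samples and young replicate 3 was low, and the log2 fold change was 0.38 ± 0.16 (adjusted p = 0.153). Pex6, part of the complex that pulls the receptors out again, and its membrane anchor Pex26 had log2 fold changes of -0.03 and -0.10, and neither was called.

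Of the proteins that assemble the membrane, Pex16 (chr2:92374728-92376813) measured 76.2, 70.1 and 49.0 CPM in young and 81.6, 80.8, 86.4 and 91.6 CPM in aged samples. The groups did not overlap, young replicate 3 was low, and the log2 fold change was 0.38 ± 0.14 (adjusted p = 0.113). The region is shared with the promoter of Large2, and counts of the genes cannot be separated there. Pex19 and Pex3 had log2 fold changes of 0.21 and 0.06. Of the Pex11 proteins, which elongate the organelle before it divides, Pex11g (chr8:3466647-3468625) measured 54.1, 51.9 and 55.6 CPM in young and 63.9, 59.2, 65.4 and 74.6 CPM in aged samples. All aged samples were above the young ones, by a log2 fold change of 0.29 ± 0.11 (adjusted p = 0.124), while Pex11a had a value of -0.04.

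Among the enzymes, both genes of alpha-oxidation, the removal of 1 carbon from branched fatty acids such as phytanic acid, had every aged sample above every young one. Hacl1, the lyase of this pathway, had the largest change of all members. Its promoter region (chr14:31639084-31642294) measured 66.7, 85.8 and 77.4 CPM in young and 134, 94.7, 124 and 119 CPM in aged samples. Aged replicate 2 was closest to the young samples. Accessibility was increased by a log2 fold change of 0.62 ± 0.13 (1.54-fold, adjusted p = 0.021). The region is shared with the start of Btd, the biotinidase gene, and of Gm49387. Phyh, the hydroxylase that starts the pathway (chr2:4917640-4920172), measured 85.6, 80.4 and 73.3 CPM in young and 94.2, 90.8, 108 and 114 CPM in aged samples. Again no samples overlapped, the log2 fold change being 0.35 ± 0.12 (adjusted p = 0.087).

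The 11 genes of beta-oxidation all had values above 0 on the log2 scale (median 0.25, range 0.05 to 0.43), against 6 of the 11 with offsets fitted on mean abundance, and 1 was called. Decr2, a reductase for unsaturated chains (chr17:26089385-26090641), measured 46.2, 50.2 and 45.9 CPM in young and 60.8, 63.9, 70.7 and 61.0 CPM in aged samples. The young samples were close together and all aged samples lay above them, and aged over young gave a log2 value of 0.43 ± 0.11 (1.34-fold, adjusted p = 0.037). Crot, which forms carnitine esters of shortened chains for export (chr5:8996267-8997845), measured 42.1, 44.7 and 49.3 CPM in young and 59.2, 52.2, 62.3 and 58.0 CPM in aged samples. The groups did not overlap, the log2 fold change being 0.36 ± 0.11 (adjusted p = 0.073). Amacr, a racemase for branched chains (chr15:10981156-10982444), measured 55.5, 55.1 and 46.2 CPM in young and 68.0, 61.8, 72.6 and 65.0 CPM in aged samples. Here too all aged samples were higher, by 0.35 ± 0.11 (adjusted p = 0.078). The thiolases Acaa1a and Acaa1b, the multifunctional enzyme Hsd17b4 and the isomerase Ech1 had values of 0.17, 0.12, 0.05 and 0.12. For the isomerase Eci2, the reductase Pecr, the thioesterase Acot8 and the thiolase and sterol carrier Scp2 they were 0.25, 0.27, 0.24 and 0.30.

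Uox, the urate oxidase that forms the crystalline core of rodent peroxisomes, was the third member called. Its promoter region (chr3:146595213-146597710) measured 73.2, 67.5 and 55.6 CPM in young and 79.95, 99.2, 101 and 94.3 CPM in aged samples. Aged replicate 1 was the lowest aged sample and still above all young ones, and aged over young gave a log2 value of 0.51 ± 0.13 (1.42-fold, adjusted p = 0.034). The region is centred 26035 bp from the annotated gene start and is shared with a promoter of Dnase2b. At the weaker region over the annotated start (chr3:146569259-146571749) the value was 0.30 ± 0.12 (adjusted p = 0.140), which was not called. The glycolate oxidase Hao1 and the aminotransferase Agxt, which handle glyoxylate, had log2 fold changes of 0.33 ± 0.20 and 0.27 ± 0.16. Lonp2 (chr8:86623643-86625610) measured 64.6, 59.2 and 57.1 CPM in young and 73.4, 68.3, 75.9 and 74.2 CPM in aged samples. The groups were separate and narrow, the log2 fold change being 0.27 ± 0.10 (adjusted p = 0.124). Of the genes of ether lipid synthesis, the values were 0.19 for Agps, -0.10 for Gnpat and -0.27 ± 0.22 for Far1, the reductase that supplies the fatty alcohol. None of the 3 was called, and Far1 had the least accessible promoter of the members at 11.5 CPM per kb.

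The promoter regions of 11 members, Hacl1 and Uox among them, also overlapped the promoter of another gene. Of these 2 were called (18.2%), with a median log2 fold change of 0.24, and of the 22 that served a member alone 1 was called (4.55%), with a median of 0.26. Over all promoter regions 4.48% were called more accessible. The 8 weaker promoter regions of members, which were not used for the counts, ranged from -0.56 at Lonp2 to 0.85 at Hacl1, and none was called. The region used for Eci2 was centred 33133 bp from the annotated gene start, and the region at that start was weak and stood at -0.0047 ± 0.31 on the log2 scale. The region used for Scp2 was centred 73302 bp from the annotated gene start and also lies within Podn. The region at the annotated gene start (chr4:108143335-108146467) had the opposite sign, -0.29 ± 0.18 (adjusted p = 0.343). The RefSeq start lay in another (chr4:108117517-108119136), where the value was 0.38 ± 0.14 on the log2 scale (adjusted p = 0.111) and the groups did not overlap.

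**Figure D2:**
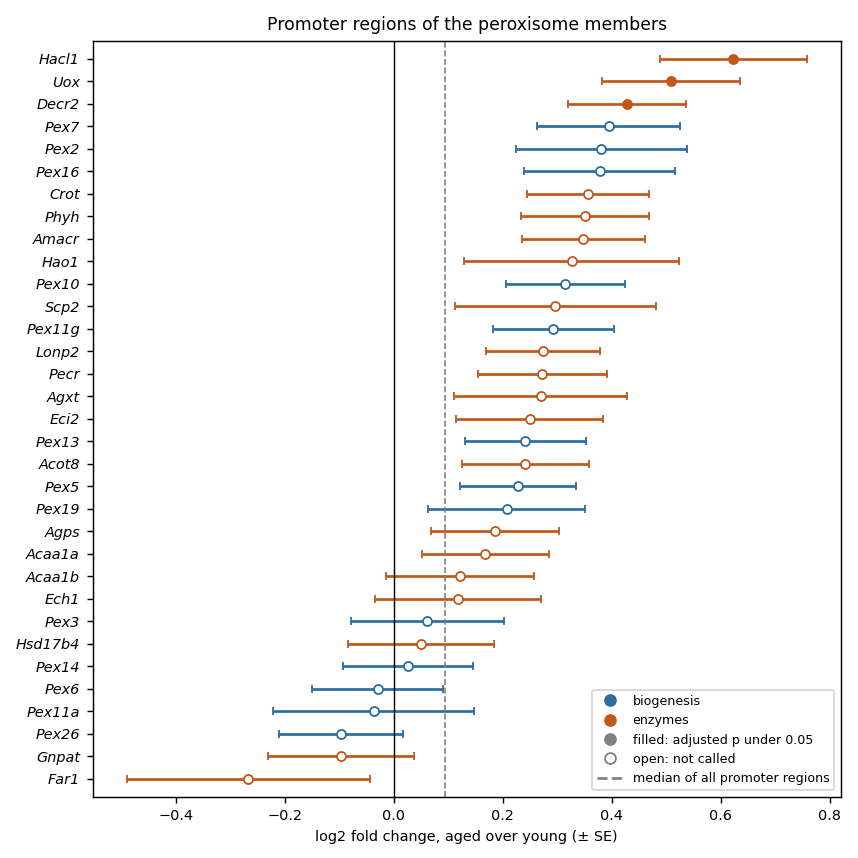
Log2 fold change of aged over young liver with its SE (horizontal axis) for the promoter region of each of the 33 members, biogenesis in blue and enzymes in orange, filled where the adjusted p was under 0.05. The filled points are Hacl1, Uox and Decr2, and 5 members lie below 0.

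Biogenesis genes and enzymes were then set side by side, with no test, since the members had been chosen with results known. Of 13 biogenesis promoters 0 were called, 10 had a log2 fold change above 0, 4 had all aged samples above the young ones and 7 had an unadjusted p under 0.05. Of 20 enzyme promoters 3 were called, 18 were above 0, 7 had all aged samples above the young ones and 8 had an unadjusted p under 0.05. Over all promoter regions 4.48% were called more accessible and 61.1% were above 0. All aged samples lay above the young ones at 20.4% of them, and 32.1% had an unadjusted p under 0.05. The medians were 0.23 and 0.27, and their difference of 0.04 stayed between 0.01 and 0.08 when single samples were left out. Within samples, the median deviation of the biogenesis genes from their mean log2 CPM was -0.10, -0.14 and -0.005 in young and 0.08, 0.01, 0.19 and 0.05 in aged liver. For the enzymes it was -0.20, -0.14 and -0.10 in young and 0.08, 0.03, 0.24 and 0.12 in aged liver. In both classes aged replicate 3 was highest and all aged samples lay above all young ones, with aged replicate 2 closest to the young. Over all promoter regions the median deviation was -0.02, -0.05 and -0.05 in young and 0.06, -0.03, 0.07 and 0.08 in aged liver. There aged replicate 2 lay among the young samples and the other aged samples above them. The median levels per length were alike, at 30.7 CPM per kb for biogenesis genes and 32.0 CPM per kb for enzymes.

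The fold change of promoters moved with their strength. When all promoter regions were ordered by mean log2 CPM and divided into 10 bins of equal number, the median change on the log2 scale went from -0.43 in the lowest bin to 0.33 in the highest, and the share with increased accessibility from 0.13% to 15.9%. Of the member regions used, each the strongest of its gene, 26 of 33 lay in the upper 4 bins and 0 in the lowest 3, whereas 4 of the 8 regions not used lay in the lowest 3. Among the strongest regions of all genes, divided in the same way, 24 were in the upper 4 bins and 1 in the lowest 3, and of all 13497 such regions 4.79% were called more accessible. With offsets fitted on mean abundance, 19 of the 33 members were above 0, and the medians were -0.02 for biogenesis genes and 0.02 for enzymes. On that scale Hacl1, Uox and Decr2 had log2 fold changes of 0.30, 0.23 and 0.19 with adjusted p of 0.249, 0.360 and 0.387. Pex26 was the lowest member there, at -0.43. Under total counts, which shifts the members' median to 0.13, Hacl1 alone was called.

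**Figure D3:**
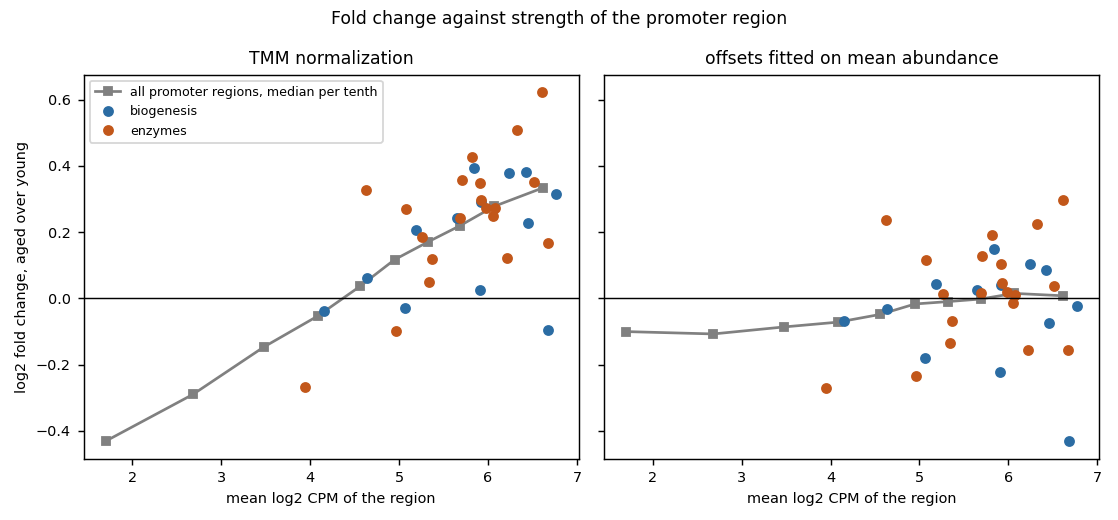
Log2 fold change of each member's promoter region (vertical axis) against its mean log2 CPM (horizontal axis), with TMM scaling on the left and with offsets fitted on mean abundance on the right. Grey squares are the medians of all promoter regions in 10 bins of strength, which run from -0.43 to 0.33 on the left and from -0.11 to 0.02 on the right.

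In the gene bodies, 2 of the 91 regions (2.2%) had increased accessibility, beside 1.47% of 25920 gene body regions of all genes, and 3 (3.30%) had decreased accessibility, beside 3.45%. The 25920 overlap no promoter of any gene, whereas some of the 91, the called one of Hsd17b4 among them, overlap the promoter of another gene. Of the 61 member regions that overlap no other gene or promoter, 1 was called more and 1 less accessible (1.64% each). Every aged sample lay above every young one at 7 of the 91 regions, beside 5.80% of the 25920, and below at 5, beside 12.7%. The median log2 fold change of the 91 was 0.11, against -0.10 for the 25920, and it lay between 0.03 and 0.17 when single samples were left out. Their median deviation from their mean log2 CPM was -0.08, -0.03 and 0.01 in young and -0.04, -0.07, 0.28 and -0.09 in aged samples. Only aged replicate 3 thus lay above all young samples. The 2 regions with increased accessibility lay in introns. That of Uox (chr3:146590872-146592125), which also lies within Dnase2b, measured 37.5, 37.9 and 24.0 CPM in young and 50.9, 47.1, 61.4 and 59.1 CPM in aged samples. The groups did not overlap, and the log2 fold change was 0.70 ± 0.16 (adjusted p = 0.025). That of Scp2 (chr4:108124944-108127160) measured 26.8, 29.6 and 30.3 CPM in young and 46.8, 33.7, 42.3 and 37.9 CPM in aged samples. Aged replicate 2 was closest to the young samples, and the log2 fold change was 0.48 ± 0.13 (adjusted p = 0.049).

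Of the 3 regions called less accessible, the largest fold change was at a weak region over the annotated untranslated end of Pex7 (chr10:19855766-19856313). It measured 4.54, 2.99 and 3.29 CPM in young and 1.32, 1.77, 1.40 and 1.53 CPM in aged samples. All aged samples were lower, and aged over young gave a log2 value of -1.26 ± 0.31 (adjusted p = 0.034), in the direction opposite to the value at the Pex7 promoter. An intronic region of Hsd17b4, at the start of the pseudogene Cd63-ps, measured 15.2, 13.8 and 13.7 CPM in young and 7.20, 7.45, 8.87 and 5.85 CPM in aged samples. The groups were far apart, the log2 fold change being -0.97 ± 0.19 (adjusted p = 0.015). A region of Acaa1a that also lies in Slc22a14 (chr9:119350213-119351503) measured 22.5, 22.7 and 22.4 CPM in young and 12.7, 10.8, 18.0 and 14.1 CPM in aged samples, and aged over young gave a log2 value of -0.71 ± 0.17 (adjusted p = 0.031). None of the 5 called gene body regions was called without young replicate 1, young replicate 2 or aged replicate 1. With offsets fitted on mean abundance the region of Hsd17b4 alone was called (adjusted p = 0.042), and the adjusted p was 0.110 for Uox, 0.241 for Scp2, 0.210 for Pex7 and 0.058 for Acaa1a, the log2 value of the Pex7 region being -0.84.

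In Lonp2 all 8 gene body regions had a log2 fold change below 0, with a median of -0.80, although its promoter stood at 0.27, and none was called. These regions were weak, with a median log2 CPM of 1.37, 60.2% of all such regions of all genes were below 0, and with offsets fitted on mean abundance the median was -0.43 and 1 of the 8 was above 0. The lowest, 72106 bp from the gene start, was at -1.34 ± 0.39 (adjusted p = 0.056). In Scp2, 15 of 17 were above 0 with a median of 0.49, and in Hacl1 5 of 6 with a median of 0.84, which had 0 calls. Every aged sample lay above every young one at 3 of these Scp2 regions and at 0 of these Hacl1 regions. An example is the Hacl1 region chr14:31623731-31624684, with 2.04, 5.52 and 7.07 CPM in young and 17.2, 3.53, 11.0 and 6.62 CPM in aged samples. All these Hacl1 regions also lie within Gm49387, and several of the Scp2 regions within Podn. Regions of 1 gene lie on the same stretch of chromosome and are not independent.

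**Figure D4:**
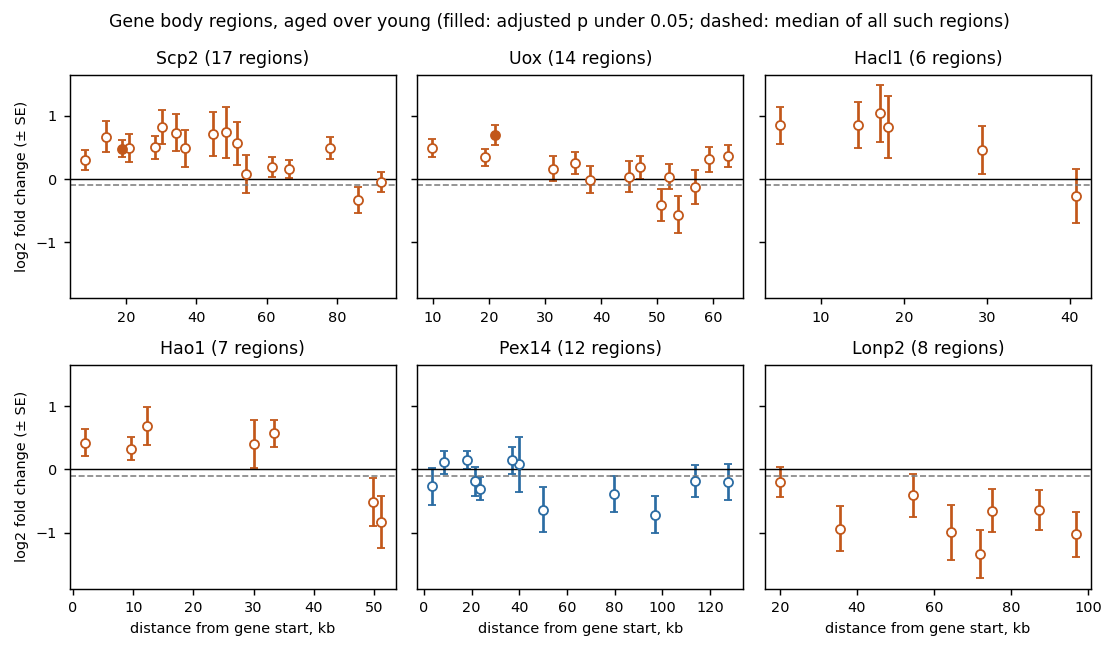
Log2 fold change with its SE (vertical axis) of each gene body region against its distance from the gene start in kb (horizontal axis) for the 6 members with the most gene body regions, filled where the adjusted p was under 0.05. The 8 regions of Lonp2 all lie below 0, and 15 of the 17 regions of Scp2 above it.

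A list of 45 further peroxisome genes was examined in the same way, and 42 had a promoter region. Of these, 11 (26.2%) had increased accessibility in aged liver, beside 4.48% of all promoter regions, 0 had decreased accessibility, beside 2.06%, 36 had a positive log2 fold change, and the median was 0.27. Without young replicate 1, aged replicate 1 or aged replicate 3 the count was 0, without young replicate 2 it was 1, and with offsets fitted on mean abundance it was also 0, with a median of 0.03. In these fits 0.0973%, 0.201%, 0.357%, 0.37% and 0.195% of all promoter regions were called more accessible. Of 18 weaker promoter regions of these genes and 4 regulators, not used in the counts, 2 were called, 1 of Acsl1 more accessible, at 0.67 ± 0.18 (adjusted p = 0.048), and 1 of Pipox less accessible, at -0.61 ± 0.16 (adjusted p = 0.037). Catalase (Cat), which removes the hydrogen peroxide made by the oxidases, measured 61.4, 69.9 and 54.8 CPM in young and 82.4, 87.1, 87.8 and 93.4 CPM in aged samples. The groups did not overlap, and the log2 fold change was 0.49 ± 0.11 (adjusted p = 0.027). Acnat2, an acyltransferase, had the largest change, 0.92 ± 0.25 (adjusted p = 0.045), with 13.4, 12.02 and 29.1 CPM in young and 30.3, 31.2, 38.1 and 32.7 CPM in aged samples, so that young replicate 3 lay next to the aged ones. That region is centred 24991 bp from the annotated gene start, and the weak region over the start (chr4:49407608-49408410), which has a near-identical copy, was not called, at 0.55 ± 0.31 (adjusted p = 0.297). The fission adaptor Fis1 had 0.57 (adjusted p = 0.016) and the aspartate oxidase Ddo 0.60 (adjusted p = 0.017). Of the coenzyme A hydrolase Nudt7, the polyamine oxidase Paox and the isocitrate dehydrogenase Idh1, the values were 0.54, 0.52 and 0.47, and of Pxmp4, Gstk1, Nudt12 and Acot12 they were 0.49, 0.48, 0.42 and 0.41. For Idh1 the region used is centred 7715 bp from the annotated start, and at the start (chr1:65185642-65187236) the value was 0.22 ± 0.12 (adjusted p = 0.258), which was not called. The Paox region used lies at the annotated start, but it is shared with the promoter of Echs1 and holds no RefSeq start of Paox. The region that holds one (chr7:140125242-140126241) had the opposite sign, at -0.18 ± 0.15 (adjusted p = 0.467).

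The regulators of peroxisome genes were not called. Ppara, the gene of PPAR alpha, measured 111, 123 and 79.4 CPM in young and 132, 129, 131 and 153 CPM in aged samples, all aged samples being higher, the log2 fold change being 0.38 ± 0.14 (adjusted p = 0.119). Its partner Rxra had 0.38 ± 0.13 (adjusted p = 0.098), the coactivator Ppargc1a 0.28 ± 0.12 (adjusted p = 0.171) and the hepatocyte factor Hnf4a 0.25 ± 0.10 (adjusted p = 0.146). The region used for Hnf4a is centred 41567 bp from the annotated gene start, and the one at that start (chr2:163506179-163507933) had the opposite sign, at -0.14 ± 0.19 (adjusted p = 0.682). That of Ppargc1a, the 1 region tested at its promoters, is centred 14866 bp from the annotated start.

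**Figure D5:**
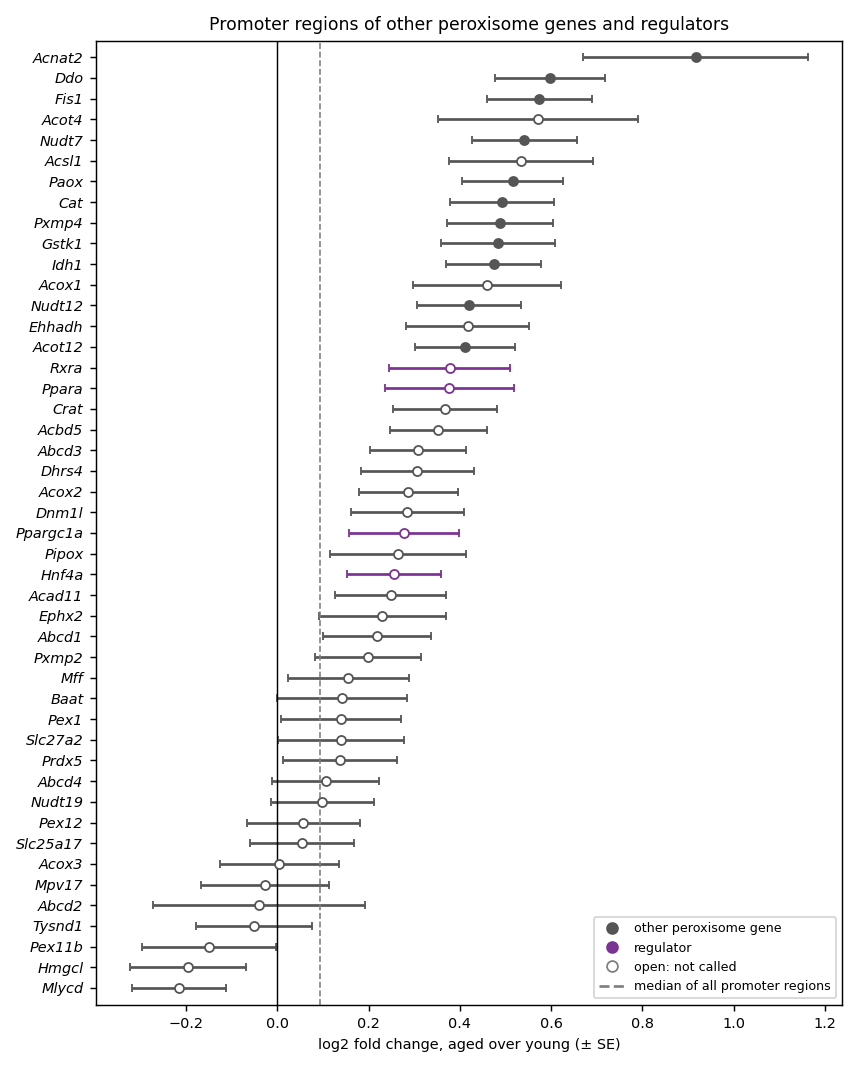
Log2 fold change of aged over young liver with its SE (horizontal axis) for the promoter regions of 42 other peroxisome genes (grey) and 4 regulators (purple), filled where the adjusted p was under 0.05. The 11 filled points all lie above 0.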

How the data were processed

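The authors deposited raw counts of reads in 55680 consensus regions for 7 samples, with no normalization. According to the methods and the submitters' processing notes, the authors trimmed reads with cutadapt 1.13, aligned them to GRCm38 with Bowtie2 2.4.1, discarded mitochondrial and duplicate reads, ran MACS2 2.2.7 on each library and counted with featureCounts. All columns matched a sample description, and 0 were left over.

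Regions were annotated with GENCODE M21 (bedtools 2.31.1) and compared by the quasi-likelihood F-test of edgeR 4.0.16 (R 4.3.3) after TMM scaling, on age alone, and Benjamini-Hochberg adjustment over all regions at 0.05. The fit was tested on simulated data. A first requirement, that a set share of changed regions be recovered at both fold sizes, was not met for 2-fold changes and was then limited to 4-fold ones. All promoter changes of members are smaller than 2-fold, so a member that was not called is not shown to be unchanged. CPM used the TMM library sizes. No member region had a near-identical copy (80% of its length at 95% identity, minimap2 2.31). Motifs were searched in RefSeq windows of GRCm38.p6. The members and lists were chosen with earlier results of these data known. Values per sample are given for members with an adjusted p under 0.05, those next in adjusted p up to 12, and called gene body regions. The called other genes (at most 10 by fold change) and the 4 regulators are named with their fold changes, and the samples of Cat, Acnat2 and Ppara were added as examples. Acot12, Mlycd, Acsl1, Pipox and single gene body regions that were not called were named after their values were seen. Alternatives were DESeq2 1.42.0, total counts, loess offsets on abundance and on GC content (span 0.3), a minimum of 10 counts, each sample left out, each pair of aged samples summed, a replicate block, a threshold of 0.01, TSS ± 1000 bp, protein-coding transcripts, summed promoter regions and Lonp2 counted with biogenesis. The p-values rest on the spread between samples, 2 of which share an animal. Protein sequences were not used here.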

Additional observations from a re-analysis of the deposited data

Results flagged for a closer look

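In 52 results, the 4 aged samples were checked for a value far from the other 3 (Dixon's ratio of the gap to the range at its 95% limit), which chance alone gives in about 1 in 20. At the Pex10 promoter aged replicate 2 was far below the others, with 106 CPM against 123 to 126 CPM (ratio 0.850). At the Eci2 promoter aged replicate 3 was far above them, with 88.0 CPM against 65.8 to 68.8 CPM (ratio 0.845). At the Ppara promoter aged replicate 4 was far above them, with 153 CPM against 129 to 132 CPM (ratio 0.886).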

How the results depend on the processing

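The median log2 fold change of the members' promoters was 0.25 and stayed above 0 in every alternative, at 0.13 with total counts and 0.017 with abundance offsets. The medians were 0.11 and -0.022 for biogenesis genes and 0.15 and 0.019 for enzymes under those settings, and 0.16 and 0.034 for the other peroxisome genes, which reached 0.35 with GC offsets. The numbers of calls changed more. Members' promoters with increased accessibility numbered 6 with DESeq2 (1 biogenesis gene and 5 enzymes, beside 1544 of all 15422 promoter regions), 11 with GC offsets (4 and 7, beside 14.2% of all promoter regions), 6 with promoter regions summed (1 and 5, beside 1995 of 16627 genes), 1 with total counts (beside 1.52%), 1 with at least 10 counts in every sample (1.46%), 0 with abundance offsets (0.195%) and 0 at a threshold of 0.01 (0.0584%). Summing aged replicates 1 and 3 gave 0 (0.59%), summing 2 and 3 gave 1 (2.16%) and summing 3 and 4 gave 1 (1.93%). Leaving out single samples gave 0 to 3 members, 0 to 1 biogenesis genes and 0 to 3 enzymes. The other peroxisome genes numbered 6 with total counts, 0 with abundance offsets, 17 with GC offsets, 4 with at least 10 counts, 0 at 0.01, and 7, 3, 7 and 6 with aged replicates 1 and 2 (beside 3.46% of all promoter regions), 1 and 3, 2 and 3, and 3 and 4 summed, and 0 to 12 without single samples (0.0973% to 5.50%, and 4.40% without aged replicate 4, which gave the 12). With abundance offsets 1 of them, Mlycd, was called less accessible, beside 0.571% of all promoter regions. Gene body regions of members with increased accessibility, each beside the share of all such regions in the same fit, numbered 5 with DESeq2 (2.69%), 6 with GC offsets (3.25%), 1 with total counts (0.64%), 1 with at least 10 counts (0.795%), 0 with abundance offsets (0.405%) and 0 at 0.01 (0.0656%). They were 0 (0.37%), 1 (0.768%), 4 (2.13%) and 1 (0.899%) with aged replicates 1 and 3, 2 and 3, 2 and 4, and 3 and 4 summed, and 0 to 5 without single samples (0.0772% to 2.03%). Those with decreased accessibility numbered 1 with abundance offsets (0.66%), 0 at 0.01 (0.193%) and 0 to 3 without single samples (0.235% to 4.90%). The causes were not tested.

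Replicate numbers do not pair the samples: the correlations of same-numbered samples were -0.119, 0.056 and 0.030. With a replicate block, 2 members, both enzymes, and 10 other peroxisome genes were called more accessible at their promoter, beside 3.37% of all promoter regions, and 4 gene body regions were called more and 3 less accessible, beside 2.08% and 4.91% of all such regions. Of the 33 member promoters 24 kept the sign of their fold change with abundance offsets. The 9 that turned, Acaa1a, Acaa1b, Ech1, Eci2, Hsd17b4, Pex3, Pex5, Pex10 and Pex14, were not called, and neither was Hnf4a, which turned too. With total counts 29 kept it, and in the other fits 30 to 33. The 3 called members kept it throughout.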
